A study of Homo sapiens with 4 samples.

Results

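The genes described here encode the proteins of the mitochondrial ribosome that carry an MRPL or MRPS symbol, where L and S stand for the large and the small subunit. They were taken as every protein-coding gene in the counts whose symbol begins with MRPL or MRPS followed by a number, which gave 76 of 57820 counted genes. MRPL45 and MRPS21 were matched to no counted gene and are not analysed here. The 4 RNA-seq libraries come from A549, a widely used human cell line established from a lung adenocarcinoma. A pair of libraries came from the parental cells (A549), for which the labels name no growth factor treatment. The other pair came from the derived line named TD, which the labels call mesenchymal-like. To make TD, A549 cells were maintained with 2 ng/ml of TGF-β (transforming growth factor beta), given anew every 3 days. Whether TD is clonal, and whether the 2 libraries of a line came from separate cultures, is not given in the sources used here. The p-values below therefore measure the spread between libraries, which may be technical.

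The mitochondrial ribosome (mitoribosome) translates the few messenger RNAs encoded in mitochondrial DNA, all of which specify core subunits of the respiratory chain and of ATP synthase. Its ribosomal RNAs are made inside the organelle, whereas all of its proteins are encoded in the nucleus, made in the cytosol and imported. Some of these proteins descend from bacterial ribosomal proteins. Others have no bacterial counterpart and were added during the evolution of mitochondria, when the ribosomal RNA shrank and protein came to make up most of the particle. A symbol does not always match a place in the particle. MRPS30 and MRPS18A are part of the large subunit in solved structures, and MRPS36 is now assigned to the 2-oxoglutarate dehydrogenase complex and not to the ribosome. By these structures 50 members belong to the large subunit, 25 to the small subunit and 1 (MRPS36) to neither.

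The sequences around the start sites of 6 members are printed first. These genes include the largest falls and rises and the only pair with close starts in which both genes are members. Each window holds 300 bases around the RefSeq start site, most of them before it, on the strand of the gene, in build GRCh38.p14. Capitals mark matches to 3 motifs: CCGGAAG (the core bound by ETS factors such as GABPA), AAGATGGCG (YY1) and TGCGCA (the short core of the nuclear respiratory factor NRF1), on either strand. MRPL46 (ENSG00000259494.1, chr15:88467339-88467638, minus strand) and MRPS11 (ENSG00000181991.11, chr15:88467458-88467757, plus strand) point away from each other, and their windows share 181 bases. MRPL53 (ENSG00000204822.6, chr2:74472631-74472930, minus strand) and MRPL43 (ENSG00000055950.12, chr10:100987448-100987747, minus strand) had the largest falls. MRPS27 (ENSG00000113048.12, chr5:72320191-72320490, minus strand) and MRPS30 (ENSG00000112996.5, chr5:44808697-44808996, plus strand) had the largest rises.
MRPL46: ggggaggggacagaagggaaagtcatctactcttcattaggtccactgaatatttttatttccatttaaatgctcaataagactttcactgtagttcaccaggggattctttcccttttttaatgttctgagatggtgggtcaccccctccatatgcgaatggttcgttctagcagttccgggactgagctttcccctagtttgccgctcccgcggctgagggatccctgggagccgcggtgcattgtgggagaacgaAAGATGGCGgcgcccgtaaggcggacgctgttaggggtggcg
MRPS11: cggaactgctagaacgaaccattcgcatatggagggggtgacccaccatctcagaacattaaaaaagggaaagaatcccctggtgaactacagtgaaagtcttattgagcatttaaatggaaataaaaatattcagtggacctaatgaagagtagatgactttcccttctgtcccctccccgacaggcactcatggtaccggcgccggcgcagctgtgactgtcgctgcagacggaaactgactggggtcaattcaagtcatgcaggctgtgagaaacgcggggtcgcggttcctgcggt
MRPL53: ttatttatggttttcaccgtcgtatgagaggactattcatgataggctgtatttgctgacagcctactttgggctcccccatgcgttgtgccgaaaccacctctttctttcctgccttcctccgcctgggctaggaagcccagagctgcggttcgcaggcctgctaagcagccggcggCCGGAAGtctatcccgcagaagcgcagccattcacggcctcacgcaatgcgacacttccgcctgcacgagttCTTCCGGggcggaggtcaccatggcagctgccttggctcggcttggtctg
MRPL43: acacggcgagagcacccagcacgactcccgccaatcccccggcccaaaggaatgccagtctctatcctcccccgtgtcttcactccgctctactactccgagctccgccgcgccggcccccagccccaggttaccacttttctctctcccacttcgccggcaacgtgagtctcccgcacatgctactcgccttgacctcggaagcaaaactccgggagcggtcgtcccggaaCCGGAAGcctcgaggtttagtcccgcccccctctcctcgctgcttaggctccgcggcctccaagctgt
MRPS27: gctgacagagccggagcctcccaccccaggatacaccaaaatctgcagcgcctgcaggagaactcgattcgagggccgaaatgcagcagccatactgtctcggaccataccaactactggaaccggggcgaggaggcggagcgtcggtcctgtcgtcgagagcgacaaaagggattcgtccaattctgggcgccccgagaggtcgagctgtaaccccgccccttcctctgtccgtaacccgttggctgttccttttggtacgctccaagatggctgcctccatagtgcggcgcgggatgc
MRPS30: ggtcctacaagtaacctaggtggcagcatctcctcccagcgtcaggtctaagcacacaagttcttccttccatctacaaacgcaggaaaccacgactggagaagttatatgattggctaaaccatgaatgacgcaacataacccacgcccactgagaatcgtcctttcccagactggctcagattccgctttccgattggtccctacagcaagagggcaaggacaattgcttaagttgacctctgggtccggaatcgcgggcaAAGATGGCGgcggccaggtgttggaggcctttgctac
The MRPL46 window holds a YY1 match close to its start site, and the MRPS30 window does too. MRPL53 has an ETS match in each orientation and MRPL43 has 1, while the MRPS11 and MRPS27 windows hold none of the 3 motifs.

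Matches to several of these motifs stood in a larger share of the member windows than of promoters at large. RefSeq windows of 300 bases were matched by symbol for 67 of the 76 members and compared with 27305 genes, and a gene counted as holding a motif where any of its windows did (11 members have several). The ETS core CCGGAAG stood in 29 member windows (43.3%), against 12.2% of all genes. The YY1 motif AAGATGGCG stood in 13 (19.4%), against 2.14%. TGCGCA stood in 14 (20.9%), against 9.76%, but the full NRF1 palindrome stood in 1 (1.49%), against 1.52%. The E-box CACGTG was found in 8 (11.9%, against 8.77%), the SP motif GGGCGG in 41 (61.2%, against 48.3%) and TATAAA in 3 (4.48%, against 14.0%). The median GC content was 60.3% in the member windows and 58.3% over all genes, and its part in the motif shares was not tested. The 27305 genes were not chosen by expression in these cells, whereas all members were expressed, and their windows per gene were not counted. The part of these differences in the motif shares was not tested either. These matches describe the letters in the windows and show no binding.

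All 76 members were expressed. The lowest count of any member in any library was 28, and all 76 passed the filter on low counts, so no member was lost from the tests. Library totals over genes ran from 26729278 to 44133836 counts. Together the members took 0.493% and 0.494% of the counts in the A549 libraries. In TD they took 0.448% (replicate 1) and 0.441% (replicate 2). Both TD shares were below both A549 shares. On the scale used from here on (CPM, each count over the size of its library after TMM scaling between libraries), the members summed to 4732 and 4893 CPM in A549 and to 4361 and 4790 CPM in TD. On that scale the TD libraries no longer lay on 1 side of A549, because 4790 is above 4732. TD replicate 2 stood apart in a measure that the labels do not mention: pseudogenes took 0.373% of its counts, against 1.11% to 1.15% in the other 3 libraries. Its share of mitochondrially encoded counts was also the highest (12.9%, against 9.37% to 11.1%). Cell-state markers followed the labels: all 5 epithelial markers, among them CDH1 and EPCAM, were lower in TD, and all 3 mesenchymal markers (CDH2, VIM, FN1) were higher. Markers of other cell types were at or near 0, with at most 11 counts of PTPRC, CD3E, CD79A, CDH5 or VWF in any library and 7 to 23 of CD14. In bulk RNA, fewer cells of a type and less RNA per cell cannot be told apart.

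Most members changed little between the lines, with more falls than rises among those that passed the test. TD against A549 was tested by edgeR's quasi-likelihood test over 17785 genes, and a gene was called at a Benjamini-Hochberg adjusted p below 0.05. Among the 76 members 22 were called (28.9%), where 43.0% of all tested genes were called. Of these, 7 rose in TD (21.6% of all tested genes did) and 15 fell (21.4% of all tested genes did), and 54 did not pass the test. The median log2 change (TD over A549) was -0.08 over the members and -0.04 over all tested genes. The middle 50% of members lay between -0.30 and 0.12, and 37 lay within 0.25 of 0. Only MRPL53 and MRPL43 were called with a change of at least 2-fold, a size that 21.8% of all tested genes reached with a call. Both TD values lay above both A549 values in 17 members and below them in 35, and the groups overlapped in 24, where 74.0% of all tested genes had groups that did not overlap (36.5% above and 37.5% below).

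The number of calls depended on which libraries and genes were in the fit. Without TD replicate 2, 8 members were called higher and 29 lower, where 50.2% of all tested genes were called. Leaving out the pseudogenes in place of the library gave 13 higher and 29 lower, with all 22 members kept, where 60.1% of all tested genes were then called. Without A549 replicate 1 the counts were 5 and 7 (23.3% of all tested genes called), without A549 replicate 2 they were 3 and 6 (24.1%), and without TD replicate 1 they were 18 and 15 (61.7%). The TD libraries also differed in 1 direction: 66 of 76 members were lower in TD replicate 1 than in TD replicate 2, against 72.2% of tested coding genes, with a median ratio of 1.11.

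**Figure D1:**
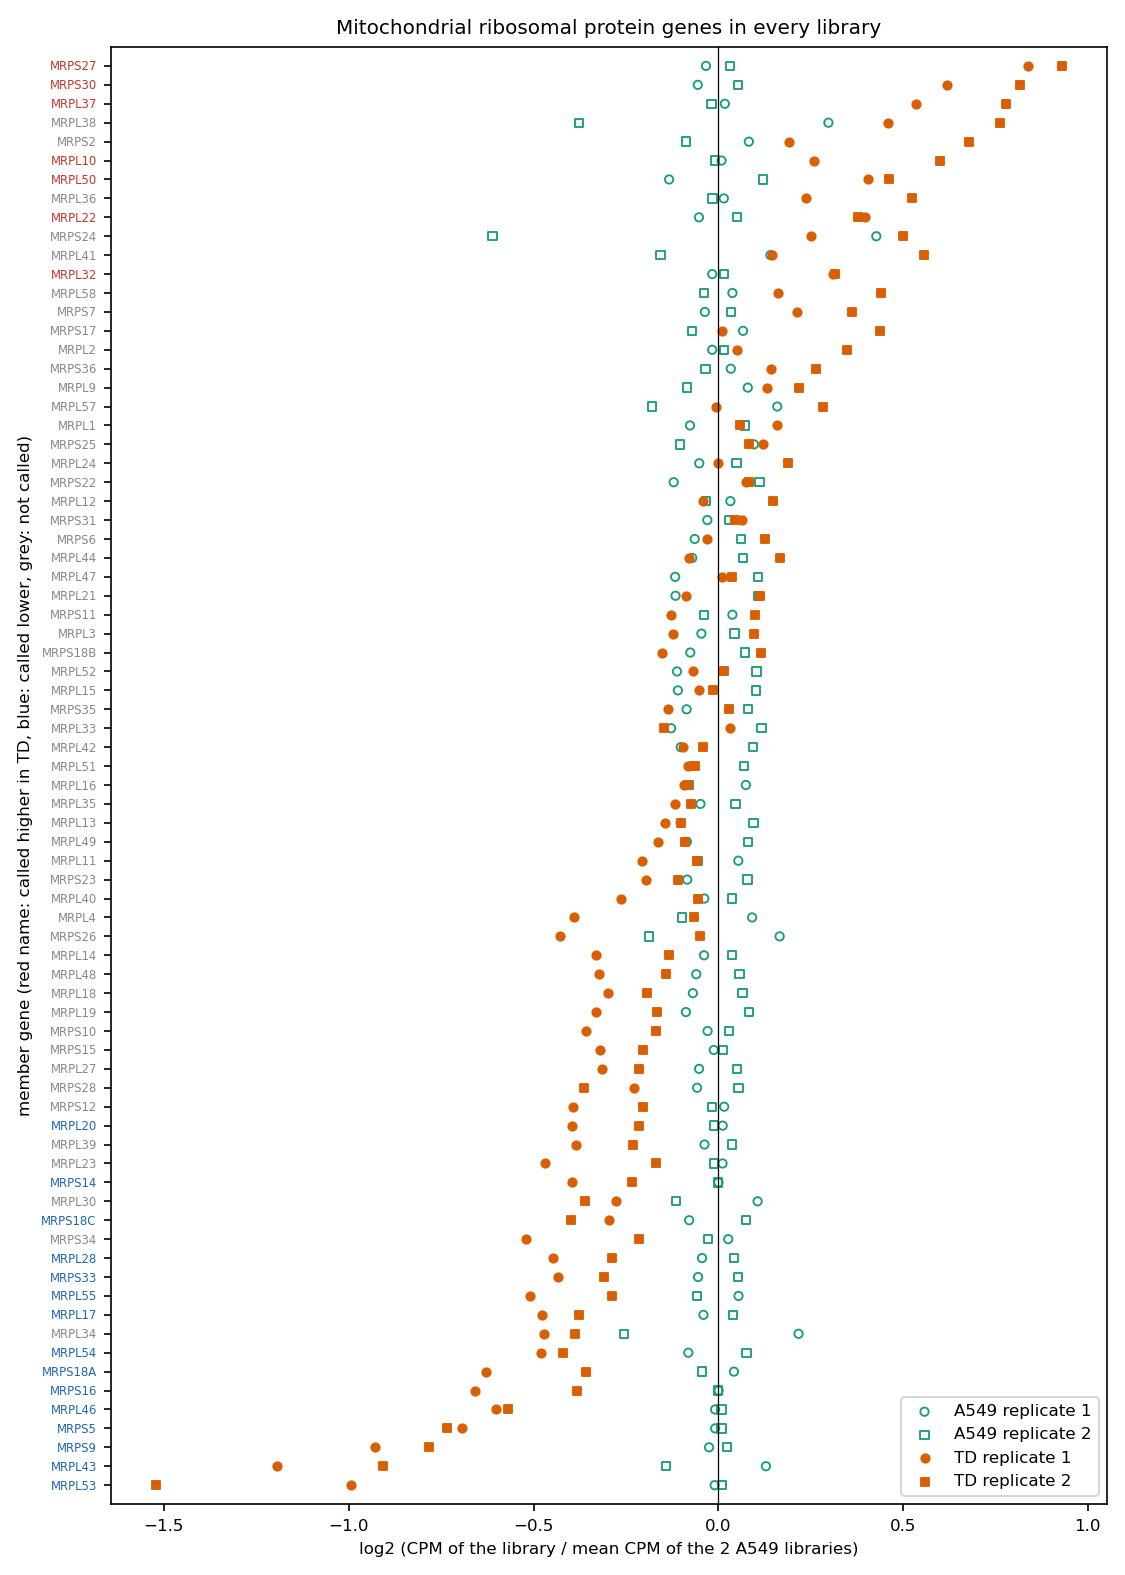
Level of each of the 76 members in each of the 4 libraries, as log2 of its CPM over the mean CPM of both A549 libraries (horizontal axis), with members ordered by their change (vertical axis) and names coloured by call. Most members lie close to 0, with MRPL53 and MRPL43 at the low end and MRPS27 and MRPS30 at the high end, and the 2 libraries of a line lie apart in MRPS24 and MRPL38.

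Among the small-subunit proteins MRPS27, a pentatricopeptide-repeat protein found only in mitochondrial ribosomes, was the sole member called higher. It measured 80.8 and 84.6 CPM in A549 and 148 and 157 CPM in TD. Both TD values were well above both A549 values, a 1.85-fold rise (log2 0.88, SE 0.08, adjusted p = 0.00113). This was the largest rise of any member, and it kept its call in all 19 alternative analyses.

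Of the 6 falls in the small subunit 5 were in proteins with bacterial homologues, a class that holds 15 of its 25 members. MRPS9, a protein of the head of the small subunit, measured 40.5 and 41.9 CPM in A549 and 21.6 and 23.9 CPM in TD (log2 -0.85, SE 0.09, adjusted p = 0.00183). The TD values were 1.81-fold lower, and the libraries of each line were close together. MRPS5, whose bacterial homologue lines the path by which messenger RNA enters, was among the most counted members, at 148 and 149 CPM in A549 and 91.8 and 89.3 CPM in TD (log2 -0.71, SE 0.07, adjusted p = 0.00161). MRPS16, a protein of the body of the subunit, measured 151 CPM in each A549 library and 95.6 and 116 CPM in TD (log2 -0.51, SE 0.11, adjusted p = 0.0198). TD was lower in both libraries for MRPS5 and MRPS16, but the TD libraries of MRPS16 differed from each other, and the call on MRPS16 was lost without A549 replicate 1 (adjusted p = 0.0696) or A549 replicate 2 (0.0709). MRPS33, MRPS14 and MRPS18C also fell, by 0.31 to 0.37 on the log2 scale. In all, 5 of the 15 small-subunit proteins with bacterial homologues fell and none rose (median log2 -0.26), where 1 of the 10 mitochondria-specific ones rose and 1 fell (median -0.03). The shares called were 33.3% and 20%, both below the 43.0% of all tested genes (21.6% higher and 21.4% lower). MRPS18B (log2 -0.01) was counted among the mitochondria-specific ones, although it descends from the same bacterial protein as MRPS18C, so the split depends on that choice. Whether these groups differ was not tested.

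MRPS18 is encoded by 3 genes whose products descend from the same bacterial protein and occupy different places. MRPS18C, which sits where the bacterial protein does, measured 42.6 and 47.4 CPM in A549 and 36.6 and 34.1 CPM in TD (log2 -0.35, SE 0.09, adjusted p = 0.0342). MRPS18A, the copy in the large subunit, measured 26.0 and 24.5 CPM in A549 and 16.4 and 19.7 CPM in TD (log2 -0.49, SE 0.12, adjusted p = 0.0275). MRPS18B, the small-subunit copy at another site, measured 32.8 and 36.3 CPM in A549 and 31.1 and 37.5 CPM in TD (log2 -0.01, SE 0.12, adjusted p = 0.95). TD was below A549 in both libraries for the first pair of genes, whereas the MRPS18B libraries of both lines spanned the same range. The calls on MRPS18A and MRPS18C were lost without A549 replicate 1 (adjusted p = 0.0952 and 0.0764) or A549 replicate 2 (0.0724 and 0.167), and with DESeq2's test (0.0527 and 0.0835). Exons of these 2 genes overlap genes on the other strand over 47.0% (RSPH9) and 40.2% (ABRAXAS1) of their length. RSPH9 stayed under 1 CPM in every library. ABRAXAS1 was higher in TD (log2 0.48, SE 0.11, adjusted p = 0.0244), the opposite direction to MRPS18C. The strand setting of the counting is not given, so reads of overlapping genes on opposite strands may not have been kept apart.

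In the large subunit the rises were led by MRPS30 and MRPL37, both mitochondria-specific. MRPS30 measured 32.0 and 34.5 CPM in A549 and 51.1 and 58.6 CPM in TD (log2 0.72, SE 0.10, adjusted p = 0.00484). MRPL37 measured 71.4 and 69.6 CPM in A549 and 102 and 121 CPM in TD (log2 0.66, SE 0.10, adjusted p = 0.00719). In both genes every TD value was above every A549 value, and the distance was larger than that between libraries of a line. MRPL50, also mitochondria-specific, rose from 33.3 and 39.7 CPM to 48.4 and 50.3 CPM (log2 0.43, SE 0.11, adjusted p = 0.0296). MRPL32, whose precursor is cut by the mitochondrial m-AAA protease before it joins the ribosome, rose from 57.8 and 59.1 CPM to 72.4 and 72.8 CPM (log2 0.31, SE 0.07, adjusted p = 0.0197). The calls on MRPL50 and MRPL32 were lost when A549 replicate 1 was left out (adjusted p = 0.099 and 0.116), and those on MRPL37 and MRPL32 when A549 replicate 2 was (0.0504 and 0.0848). With library totals in place of TMM, MRPL32 was not called (adjusted p = 0.0609).

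The falls in the large subunit were led by a pair of mitochondria-specific proteins. MRPL53, which lies at the base of the stalk that recruits translation factors, measured 9.81 and 9.94 CPM in A549 and 4.96 and 3.44 CPM in TD. The 2 TD values were far below A549, 2.36-fold lower (log2 -1.24, SE 0.21, adjusted p = 0.00916), but they differed from each other as well. Without A549 replicate 1 or 2 the adjusted p rose to 0.0843 or 0.0859. MRPL43 measured 56.4 and 46.8 CPM in A549 and 22.6 and 27.5 CPM in TD, 2.06-fold lower (log2 -1.04, SE 0.15, adjusted p = 0.00494), and kept its call in all 19 alternative analyses. The groups were far apart in MRPL43, although the libraries of each line also differed from each other.

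Both of these genes overlap a neighbour that changed in the same direction. CCDC142, on the strand of MRPL53, covers 45.2% of its exon length, and measured 12.1 and 9.91 CPM in A549 and 5.62 and 5.19 CPM in TD (log2 -1.02, SE 0.15, adjusted p = 0.00602). Genes on the strand opposite to MRPL43 cover 36.9% of its exon length. Of these SEMA4G fell from 53.7 and 46.2 CPM to 2.86 and 3.47 CPM (log2 -3.97, SE 0.15, adjusted p = 8.39e-05), and TWNK, the mitochondrial DNA helicase, fell from 76.8 and 73.1 CPM to 51.5 and 47.5 CPM (log2 -0.60, SE 0.08, adjusted p = 0.0044). The values of MRPL53 and MRPL43 are uncertain to the extent that reads of the overlapped parts were shared, and the part of the overlap in their falls was not tested. Over all members, 7 have more than 20% of their exon length under a gene on the same strand and 7 under a gene on the opposite strand.

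The remaining falls in the large subunit were smaller. MRPL46, a mitochondria-specific protein of the central protuberance, measured 33.8 and 34.2 CPM in A549 and 22.4 and 22.9 CPM in TD (log2 -0.58, SE 0.07, adjusted p = 0.00361). The libraries of each line nearly coincided, and the groups were clearly separate. MRPL17, a bacterial homologue at the exit of the peptide tunnel, measured 111 and 117 CPM in A549 and 81.7 and 87.5 CPM in TD (log2 -0.43, SE 0.08, adjusted p = 0.0119). MRPL54 fell from 24.5 and 27.3 CPM to 18.6 and 19.4 CPM (log2 -0.45, SE 0.09, adjusted p = 0.0166), and MRPL55 from 31.8 and 29.5 CPM to 21.5 and 25.1 CPM (log2 -0.39, SE 0.11, adjusted p = 0.0396). TD was lower than A549 in both libraries for these 3 genes too. MRPL28 and MRPL20, both bacterial homologues, fell by 0.36 and 0.30 on the log2 scale. The call on MRPL55 rested on both A549 libraries (adjusted p = 0.11 with replicate 1 left out and 0.0718 with replicate 2 left out), and that on MRPL54 on A549 replicate 2 (0.0625 when left out). With DESeq2's test neither was called (adjusted p = 0.0522 for MRPL54 and 0.103 for MRPL55).

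By place in the large subunit, none of the sites listed here moved as a block, although the lists may not hold every protein of a site. Of the 4 stalk proteins MRPL10, the anchor of the stalk, rose from 44.8 and 44.3 CPM to 53.3 and 67.6 CPM (log2 0.44, SE 0.13, adjusted p = 0.0479), while MRPL53 fell. MRPL12, the stalk protein that contacts translation factors and has been reported to bind the mitochondrial RNA polymerase, measured 38.1 and 36.4 CPM in A549 and 36.2 and 41.2 CPM in TD (log2 0.06, SE 0.09, adjusted p = 0.671). The lines overlapped in MRPL12, and the sign of its change depended on the scaling: with library totals in place of TMM it was -0.02. Another annotated gene on the same strand covers 68.2% of its exon length. Of the 6 measured proteins at the tunnel exit, MRPL22 rose from 29.4 and 31.5 CPM to 40.0 and 39.6 CPM (log2 0.39, SE 0.08, adjusted p = 0.0153), MRPL17 fell, and 4 did not pass the test. The call on MRPL10 was lost without A549 replicate 1 or 2 (adjusted p = 0.178 or 0.175), and so was that on MRPL22 (0.11 or 0.0611).

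Of the 5 proteins listed here for the central protuberance, all mitochondria-specific, MRPL46 was the only one called. Bacterial homologues at this site were not listed, so the site was read only in part. MRPL58, a peptidyl-tRNA hydrolase that became a structural protein of this site, measured 42.9 and 40.6 CPM in A549 and 46.7 and 56.7 CPM in TD (log2 0.31, SE 0.12, adjusted p = 0.0923). Both TD values were above both A549 values, but by less than the TD libraries differed from each other. The log2 change of MRPL58 was 0.45 without TD replicate 1 and 0.16 without TD replicate 2. With pseudogenes left out its adjusted p was 0.0184, but MRPL58 stayed uncalled in 15 of the 19 alternative analyses. Over the whole large subunit 6 of 50 proteins rose and 9 fell (median log2 -0.08). There were 3 rises and 5 falls among 31 bacterial homologues (25.8% called). Among 19 mitochondria-specific proteins there were 3 rises and 4 falls (36.8% called), where 43.0% of all tested genes were called. MRPS18A, which fell, was counted among the bacterial homologues, unlike MRPS18B, so this split also depends on that choice. MRPS36, the member outside the ribosome, measured 28.6 and 27.2 CPM in A549 and 30.8 and 33.5 CPM in TD (log2 0.21, SE 0.08, adjusted p = 0.116). Its TD values were above its A549 values without passing the test. The log2 change of MRPS36 was 0.27 without TD replicate 1 and 0.14 without TD replicate 2.

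The A549 libraries lay farthest apart in MRPS24 and MRPL38, which did not pass the test and are named after their values were seen. MRPL38 measured 18.7 and 11.7 CPM in A549 and 20.9 and 25.8 CPM in TD (log2 0.62, SE 0.25, adjusted p = 0.107). MRPS24 measured 32.1 and 15.6 CPM in A549 and 28.4 and 33.7 CPM in TD (log2 0.38, SE 0.34, adjusted p = 0.43). In both genes A549 replicate 2 was well below A549 replicate 1, and the libraries of MRPS24 overlapped between lines. Over the 76 members the higher library of a line was at a median of 1.08 times the lower in A549 and 1.12 times in TD. The standard error of a log2 change ranged from 0.07 to 0.34 with a median of 0.10, and the smallest change that was called in a member was 1.23-fold.

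The member changes were also set beside those of the genes around them. On chromosome 5 all 5 members lay above 0, and MRPS27, MRPS30 and MRPL22 were called higher. The 576 other tested coding genes of chromosome 5 had a median log2 change of 0.57, with 61.8% called higher and 6.94% lower. On chromosome 10 both members, MRPL43 and MRPS16, fell, where the 526 other coding genes had a median of -0.40, with 48.7% called lower and 16.7% higher. On chromosome 2, 3 of 8 members (MRPL53, MRPS9 and MRPS5) fell and none rose, where the 910 other coding genes had a median of -0.19, with 36.5% called lower and 19.3% higher. In all, 8 of the 15 members on these 3 chromosomes were called, against 14 of the 61 elsewhere. Over all chromosomes 50.6% of tested coding genes were called. Other coding genes of these 3 chromosomes were often called as well, by the shares above, so these counts are no result about the members. These chromosomes were picked after their values were seen.

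The same was measured locally, with the 10 tested coding genes on each side of a member in gene order. The median change of these neighbours was 0.82 around MRPS27 and 0.70 around MRPS30, beside changes of 0.88 and 0.72 in the members themselves. Around MRPS5 it was -0.54, around MRPS16 -0.50, around MRPS9 -0.45, around MRPL53 -0.40 and around MRPL43 -0.61. By contrast it was 0.07 around MRPL46, which fell, and -0.09 around MRPL37, which rose, so these 2 members departed from their surroundings. Across all 76 members the change of a member and the median of its neighbours had a Pearson r of 0.54. Without the 7 members on chromosomes 5 and 10 r was 0.32 (69 members), and without chromosome 2 as well it was 0.14 (61 members). Neighbouring members share neighbours, and all points share the same 4 libraries, so r is a description and carries no p. Of the 22 called members 11 had the sign of their neighbours, 5 of the 7 that rose and 6 of the 15 that fell. The part of chromosomal position in the member changes was not tested.

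**Figure D2:**
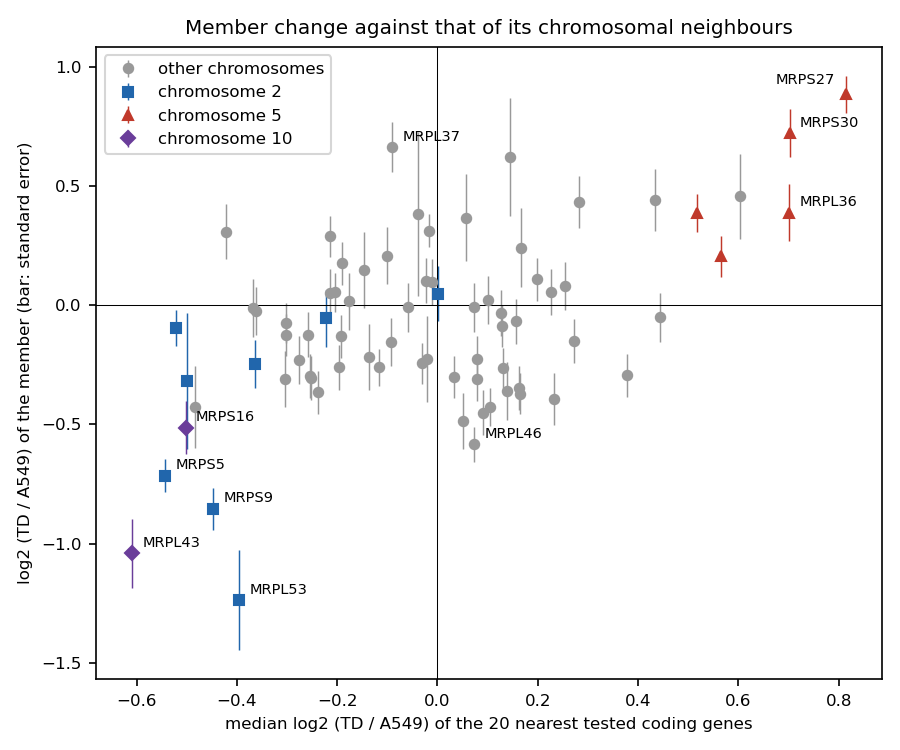
Log2 change of each member (vertical axis, bar: standard error) against the median log2 change of its 20 nearest tested coding genes (horizontal axis). The members of chromosome 5, with MRPS27 at 0.88, lie at the upper right and those of chromosome 10 at the lower left, while MRPL46 and MRPL37 lie away from 0 with neighbours near 0.

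Some of these genes start close to a partner gene that runs the other way. By the starts in GENCODE 29, a tested coding partner within 1000 bases on the other strand was found in 18 pairs. The 2 log2 changes had the same sign in 13 of these pairs, called or not. Some of the 13 had a change near 0 in 1 gene, as MRPL46 with MRPS11 and MRPL52 with SLC7A7. The share over other gene pairs was not counted. Both genes were called in 3. These were MRPL43 with TWNK and MRPL54 with APBA3, which fell, and MRPL50 with ZNF189, which rose. MRPL46 and MRPS11 are the only pair in which both genes are members, and their GENCODE 29 starts lie 34 bases apart (the RefSeq starts behind the printed windows lie farther apart). MRPL46 fell, as given above, while MRPS11, a small-subunit protein with a bacterial homologue, measured 67.2 and 63.7 CPM in A549 and 59.9 and 70.2 CPM in TD (log2 -0.01, SE 0.10, adjusted p = 0.96). The libraries of MRPS11 overlapped between the lines. The difference between the changes of the 2 genes was not tested. In the printed windows the YY1 match of MRPL46 lies outside the 181 bases shared with MRPS11.

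Of the other pairs, named after their values were seen, the first given here parted and the second moved in the same direction. MRPL52 measured 84.7 and 98.4 CPM in A549 and 87.4 and 92.5 CPM in TD (log2 -0.03, SE 0.10, adjusted p = 0.857), while SLC7A7, an amino acid transporter that starts 59 bases away, fell by 2.26 on the log2 scale (SE 0.12, adjusted p = 0.000247). MRPL36, a large-subunit protein on chromosome 5, measured 23.7 and 23.3 CPM in A549 and 27.7 and 33.8 CPM in TD (log2 0.39, SE 0.12, adjusted p = 0.0527). Its partner NDUFS6, a subunit of respiratory complex I whose start is 34 bases away, rose from 56.7 and 48.3 CPM to 72.6 and 87.4 CPM (log2 0.61, SE 0.13, adjusted p = 0.0194).

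The motifs in the start regions were counted by call as a description. The ETS core stood in 9 of the 15 members that fell, in 20 of 46 members that did not pass the test and in none of the 6 matched members that rose. The YY1 motif stood in 4 of the 6 that rose (MRPL22, MRPL32, MRPL50 and MRPS30), in 2 of the 15 that fell (MRPL46 and MRPS18A) and in 7 of the 46 others. The short core TGCGCA stood in 2 of 6, 3 of 15 and 9 of 46. These counts are small, were not tested, and show nothing about the factors themselves.

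Within each line the members were expressed at very different levels, which are compared here only per length, as CPM per kilobase of the principal transcript. MRPL33 was the highest in both lines, at 233 and 276 CPM per kilobase in A549 and 260.3 and 230.0 CPM per kilobase in TD. MRPS12, which shapes the decoding centre, came next in A549 (153 and 149 CPM per kilobase) and measured 115 and 131 CPM per kilobase in TD. MRPL51 followed with 137 and 151 CPM per kilobase in A549 and 136 and 138 CPM per kilobase in TD. The A549 ranges of MRPS12 and MRPL51 overlapped. MRPL30 was the lowest member by far, at 0.483 and 0.414 CPM per kilobase in A549 and 0.370 and 0.349 CPM per kilobase in TD, on counts low enough that its change (log2 -0.32, SE 0.28, adjusted p = 0.429) did not pass the test. Genes on the same strand cover 19.5% of the exon length of MRPL30, and the part of this overlap in its low counts was not tested. The next lowest was MRPL42, at 4.74 and 5.43 CPM per kilobase in A549. Its principal transcript is 15582 bases long, and before division by length it measured 73.9 and 84.6 CPM in A549. The order depended on the length used: per kilobase of all annotated exons MRPS34 led in A549 and MRPL33 came at rank 5, while MRPL30 was lowest either way. The order was largely kept between lines, with a Pearson r of 0.96 between log2 levels per kilobase in A549 and TD over the 76 members, which share lengths and libraries.

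**Figure D3:**
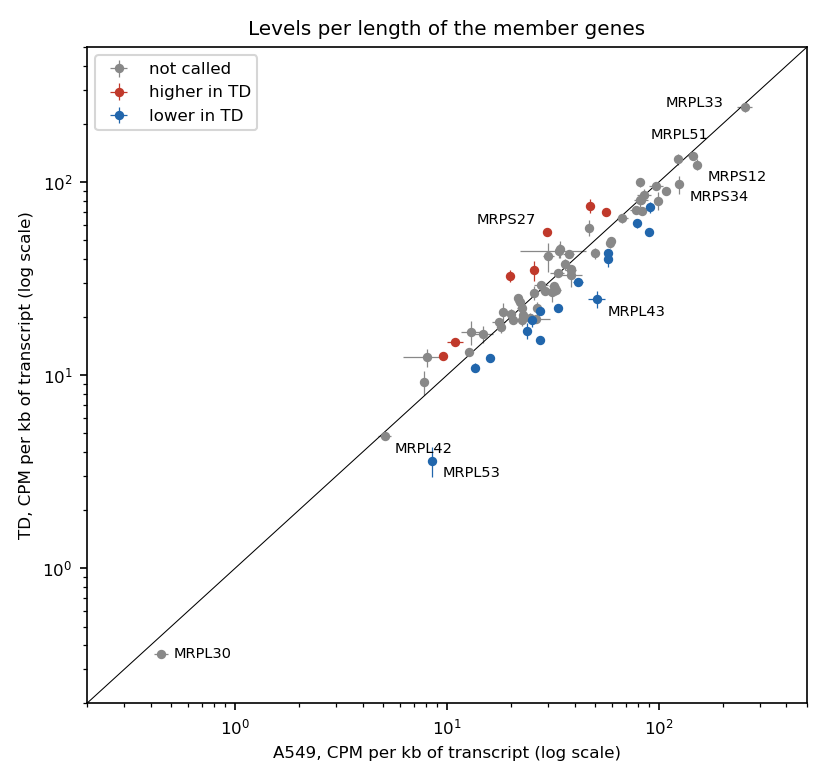
Level of each member in TD (vertical axis) against A549 (horizontal axis), in CPM per kilobase of transcript on log scales, as means of 2 libraries with bars from the lower to the higher library, coloured by call. Points follow the diagonal from MRPL30 at the bottom left to MRPL33 at the top right, with MRPL53 and MRPL43 below it and MRPS27 above it.

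Genes that work with these proteins were read from lists in the same fit. Of 5 mitoribosomal proteins without an MRP symbol, DAP3, a GTP-binding small-subunit protein, rose from 98.6 and 108 CPM to 124 and 135 CPM (log2 0.32, SE 0.09, adjusted p = 0.0387). CHCHD1 fell from 43.0 and 46.7 CPM to 27.7 and 32.4 CPM (log2 -0.58, SE 0.11, adjusted p = 0.0122), and PTCD3, a pentatricopeptide-repeat protein of the small subunit, fell from 120 CPM in each A549 library to 93.6 and 91.8 CPM (log2 -0.37, SE 0.07, adjusted p = 0.0117). The other two, AURKAIP1 and GADD45GIP1, did not pass the test (adjusted p = 0.483 and 0.843). So this small set, like the members, held changes in both directions.

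Of 26 tested mitoribosome assembly factors 4 rose and 4 fell (median log2 0.09). The share called was 30.8% here, 23.5% in translation factors and 35% in tRNA-charging genes (both below), against 43.0% of all tested genes. NSUN4, an RNA methyltransferase needed to join the subunits, rose from 23.7 and 22.6 CPM to 32.2 and 36.4 CPM (log2 0.57, SE 0.10, adjusted p = 0.00896), and TRUB2, a pseudouridine synthase, rose by 0.39 (log2 scale, adjusted p = 0.0426). DHX30, an RNA helicase of mitochondrial RNA granules, fell from 115 and 110 CPM to 67.1 and 76.5 CPM (log2 -0.65, SE 0.09, adjusted p = 0.0053), and MTG1, a GTPase of late large-subunit assembly, fell by 0.53 (log2 scale, adjusted p = 0.0429). Of 17 translation factors 1 rose and 3 fell (median 0.03). The initiation factors were both lower: MTIF2 fell from 118 and 134 CPM to 80.4 and 80.2 CPM (log2 -0.65, SE 0.09, adjusted p = 0.00487) and MTIF3 from 15.4 and 18.4 CPM to 11.1 and 10.9 CPM (log2 -0.62, SE 0.12, adjusted p = 0.0139). GFM2, which acts in ribosome recycling, rose by 0.33 on the log2 scale (adjusted p = 0.0193). Of 20 genes for charging mitochondrial tRNAs 1 rose and 6 fell (median 0.04). CARS2 fell from 46.3 and 45.0 CPM to 24.9 and 27.1 CPM (log2 -0.81, SE 0.08, adjusted p = 0.00173), SARS2 fell by 0.62 on the log2 scale (adjusted p = 0.00521), and HARS2, on chromosome 5, rose from 39.9 and 38.7 CPM to 60.3 and 60.2 CPM (log2 0.62, SE 0.07, adjusted p = 0.00255).

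Few genes passed the test among the messages that the mitoribosome translates and the genes that express them, where 43.0% of all tested genes did. Of 13 mitochondrially encoded mRNAs none was called higher and 1, MT-ND3, was called lower (864 and 1041 CPM in A549, 501 and 680 CPM in TD, log2 -0.69, SE 0.19, adjusted p = 0.0367), with a median of -0.01. Of 9 genes for mitochondrial DNA expression and replication TWNK was the only one called (median 0.16). TFAM, which packages mitochondrial DNA, measured 104 and 116 CPM in A549 and 128 and 134 CPM in TD (log2 0.25, SE 0.09, adjusted p = 0.074). POLRMT, the mitochondrial RNA polymerase, measured 115 and 96.1 CPM in A549 and 80.5 and 99.9 CPM in TD (log2 -0.23, SE 0.15, adjusted p = 0.283). The TFAM groups did not overlap and the POLRMT groups did.

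Nuclear genes of the respiratory chain had more falls than rises, and those of the cytosolic ribosome had more rises than falls, in counts to be read beside 21.6% of all tested genes called higher and 21.4% called lower. Of 76 nuclear subunits of the respiratory complexes and ATP synthase 3 rose and 16 fell (median -0.16), and with pseudogenes left out of the fit 5 were called higher and 33 lower (60.1% of all tested genes were then called in either direction). NDUFB8 fell from 34.2 and 35.7 CPM to 19.1 and 20.2 CPM (log2 -0.83, SE 0.08, adjusted p = 0.00154) and NDUFC1 fell by 0.63 on the log2 scale (adjusted p = 0.00702), while NDUFS6 and NDUFS4, both on chromosome 5, rose by 0.61 and 0.55 (adjusted p = 0.0194 and 0.0165). Of 79 cytosolic ribosomal proteins 13 rose and 3 fell (median 0.21), which became 25 and 8 with pseudogenes left out. The rises were led by RPL28, at 442 and 414 CPM in A549 and 716 and 1038 CPM in TD (log2 1.03, SE 0.19, adjusted p = 0.0123), and RPL7A (log2 0.75, adjusted p = 0.0299). RPS19 and RPL31 fell by 0.67 and 0.46 on the log2 scale (adjusted p = 0.00658 and 0.0342). Cytosolic ribosomal protein genes have many near-identical pseudogenes, whose share of counts was low in TD replicate 2, so their values are uncertain and the part of that share was not tested. Of 22 tested genes of mitochondrial protein import 1 rose (PMPCA, log2 0.60, adjusted p = 0.00859) and 3 fell, led by TIMM10 (log2 -0.65, adjusted p = 0.00297) and TIMM13 (log2 -0.32, adjusted p = 0.0313), with a median of -0.01. Differences between these lists were not tested.

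Several regulators known for control of nuclear mitochondrial genes changed: of 9 tested, 4 rose and 2 fell. Over all tested genes 21.6% were called higher and 21.4% lower. PPARGC1A, the coactivator PGC-1α, fell from 23.8 and 21.4 CPM to 0.414 and 0.689 CPM, 39.8-fold (log2 -5.31, SE 0.24, adjusted p = 0.000143). ESRRA, a nuclear receptor that it coactivates, fell from 84.0 and 72.1 CPM to 38.8 and 46.1 CPM (log2 -0.88, SE 0.13, adjusted p = 0.00539). Both were lower in every TD library than in any A549 library. PPARGC1B, a related coactivator, rose by 0.69 on the log2 scale (adjusted p = 0.0142), GABPB1, the partner of the ETS factor GABPA, by 0.64 (adjusted p = 0.0048), and MYC by 0.59 (adjusted p = 0.00745). NRF1 itself measured 19.5 and 21.0 CPM in A549 and 18.5 and 22.2 CPM in TD (log2 0.01, SE 0.12, adjusted p = 0.966), and GABPA 24.7 and 26.8 CPM in A549 and 27.1 and 29.8 CPM in TD (log2 0.14, SE 0.09, adjusted p = 0.289). The lines overlapped in NRF1 and were narrowly separate in GABPA.

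**Figure D4:**
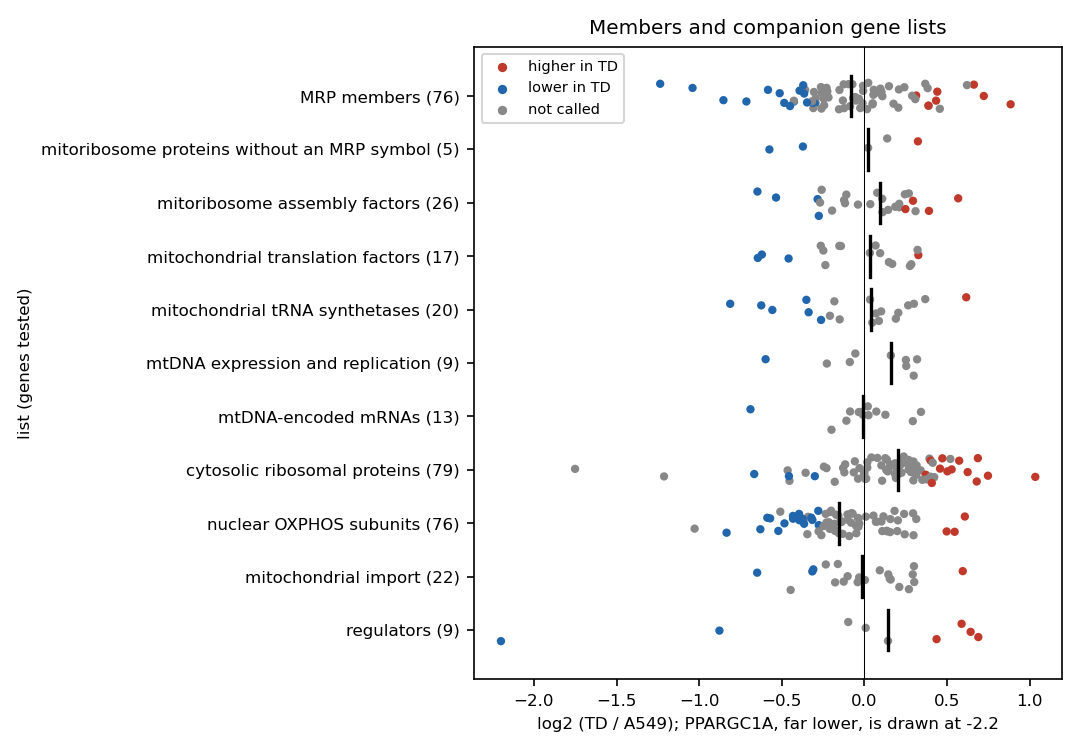
Log2 change (TD over A549) of every tested gene of the members and of each companion list (horizontal axis), with lists and their sizes on the vertical axis, points coloured by call and a black bar at each median. The members and the nuclear respiratory chain genes centre slightly below 0 and the cytosolic ribosomal proteins slightly above, and PPARGC1A, at -5.31, is drawn at the edge of the axis.

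Transcripts that share a name with the members were counted apart from them. The processed pseudogenes MRPL3P1 and MRPS36P1 had 39 and 53, and 23 and 24 counts in A549, 35 and 39 counts in TD replicate 1, and 2 and 1 counts in TD replicate 2. The low values in TD replicate 2 go with its low pseudogene share over all genes. MRPL45P2, a pseudogene of a gene not analysed here, had 151 and 165 counts in A549 and 171 and 192 counts in TD, without a drop of that size. These counts are not scaled to library size, and the total over genes was 28237849 in TD replicate 1 and 44133836 in TD replicate 2. The divergent transcript MRPS30-DT had 6 and 5 counts in A549 and 10 in each TD library, and MRPS30 itself rose. The antisense transcript MRPL23-AS1 had 17 and 14 counts in A549 and 0 and 5 in TD. Counts of both transcripts are low and not scaled, so no change is read from them.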

How the data were processed

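Each of the 4 libraries (2 of A549, 2 of TD) was made with a stranded mRNA kit, per the labels' protocols. The authors deposited, for each library, a file of unnormalized read counts by gene. Their notes name FastQC 0.11.8, STAR 2.7.1a, HTSeq 0.11.2 and human genome hg19 (also called GRCh37), per the submitters' processing notes. Which annotation release, strand setting or read filter was used is not given in the sources used here. Reads given to no gene (6.12% to 7.79% of all counted reads outside genes, 2.34% to 2.56% ambiguous, 8.08% to 9.22% with several alignments) were left out of library sizes.

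Of 57820 gene identifiers 52338 were matched to a symbol in GENCODE 29. Since that annotation is on GRCh38, it gave names, types, lengths, overlaps and gene order only, and no coordinates. Start-site windows came from RefSeq (GRCh38.p14), matched by symbol, with human chromosome 8 left out.

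Counts were tested with edgeR 4.0.16 (R 4.3.3): filterByExpr with a minimum count of 10, TMM scaling, quasi-likelihood test of TD against A549, Benjamini-Hochberg adjustment over 17785 genes, threshold 0.05. The standard error is the absolute log2 change over the square root of F. The biological coefficient of variation was 20.1%, and 7.90% without pseudogenes. The script was tested on simulated data. Alternatives were other scalings, filters and gene sets, DESeq2 1.42.0, limma-voom (limma 3.58.1), thinning, a replicate block, a test against a 1.5-fold change and leaving out each library.

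The members and companion lists were chosen with earlier results of these data known, so their counts are descriptions. Named were the 10 largest rises and falls among called members, MRPS18A, MRPS18B, MRPS18C, MRPL12, MRPS30, MRPL58 and MRPS36 in any case, up to 2 called genes per direction of each companion list, and TFAM, POLRMT, PPARGC1A, MYC, NRF1 and GABPA.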

Additional observations from a re-analysis of the deposited data

How the results depend on the processing

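With 2 libraries a group, the number of calls depended on the setting, for the members and for all genes in the fit, whose share called is given in parentheses (43.0% in the report). MRPS27, MRPL43 and MRPS9 kept their call in all 19 alternatives. The count of members called higher, 7 in the report, was 12 with no filter on low counts (24.3%), 13 with protein-coding genes only (63.9%), 13 with pseudogenes left out (60.1%) and 1 against a 1.5-fold change (21.6%). It ranged from 3 to 18 when each library was left out in turn. The count called lower, 15 in the report, was 24 with upper quartile scaling (45.5%), 27 with library totals only (43.9%), 9 with DESeq2's test (19.0%), 25 with no filter, 27 with a filter of 5 CPM in 2 libraries (59.1%), 28 with protein-coding genes only, 29 with pseudogenes left out, 23 without the 20 most abundant genes (45.0%) and 3 against a 1.5-fold change. It ranged from 6 to 29 when each library was left out in turn. With pseudogenes and TD replicate 2 both left out, a setting chosen after seeing the data, 8 were called higher and 29 lower (54.3%). The median log2 change of the members, -0.08 in the report, ranged from -0.17 (without A549 replicate 1) to -0.046 (without TD replicate 1) when each library was left out in turn. The cause of these shifts was not tested.

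MRPS18B and MRPL12, which were not called, changed sign. MRPS18B was at 0.023 with DESeq2's test, and between -0.15 and 0.13 when each library was left out in turn (above 0 without A549 replicate 2 or TD replicate 1). MRPL12 was at -0.024 with library totals only, between -0.043 and 0.16 when each library was left out in turn (below 0 without A549 replicate 2 or TD replicate 2), and at -0.028 with pseudogenes and TD replicate 2 left out.

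The labels give both lines replicates 1 and 2, but nothing says that a number marks a shared culture or day. The deviations of same-numbered libraries from their group means had a correlation of -0.0787 across genes. With the replicate number as a block, 6 members were called higher and 10 lower (32.7%).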
